A study of Mus musculus with 3 samples.

Results

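The listed set held 9 genes, Txnip, Arrdc1, Arrdc2, Arrdc3, Arrdc4, Slc2a1, Slc2a3, Mlxip and Mlxipl, of the 32285 genes in the deposited matrices, and all 9 were found by symbol. They were measured by single-cell RNA sequencing in the stromal vascular fraction (SVF, the non-adipocyte cells) of subcutaneous inguinal fat from 3 wild-type C57BL/6J mice. All 3 mice were male, 8 weeks of age and on standard chow, and all cells had been sorted as CD31- CD45-, which depletes endothelial cells and leukocytes. Each mouse gave 1 library, so the design holds no treatment or genotype contrast and every comparison here was made between classes of cells within the same 3 animals. Of the 34577 cells with over 500 genes and under 5% mitochondrial UMIs (unique molecular identifiers, 1 per captured transcript), 19841 passed a progenitor gate (at least 3 UMIs of Dpp4 and Pi16 together, with at most 1 of Icam1 and Fabp4), 5561 a preadipocyte gate (at least 4 UMIs of Icam1 and Fabp4, with at most 1 of Dpp4) and 1058 a regulatory gate (at least 1 UMI each of Clec11a and Fmo2, with at most 1 of Fabp4 and of Dpp4). These gates stand for the Dpp4+ adipose stem cells (ASCs), the Icam1+ preadipocytes (PreAs) and the adipogenesis-regulatory cells (Aregs) of this depot. Another 264 cells passed several gates and were placed in none.

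Txnip encodes thioredoxin-interacting protein, an alpha-arrestin that binds reduced thioredoxin and promotes endocytosis of the glucose transporter GLUT1. Its transcription is a classical readout of glucose: MondoA (encoded by Mlxip) and ChREBP (encoded by Mlxipl) pair with Mlx, respond to glucose-6-phosphate, and bind carbohydrate response elements in the Txnip and Arrdc4 promoters. Arrdc1 to Arrdc4 are the other alpha-arrestins of the set, adaptors that link membrane proteins to NEDD4-family ubiquitin ligases, and Slc2a1 and Slc2a3 encode the glucose transporters GLUT1 and GLUT3. The set was chosen by the measured level of Txnip, which an earlier look at these data had placed low in CD44high preadipocytes, so the Txnip levels are given as a description, and tests are given for the other 8 members.

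The genes lie on separate stretches of the GRCm38 genome, Txnip on chromosome 3 from 96557957 to 96561883 on the plus strand, Arrdc4 on chromosome 7 from 68736995 to 68749241 on the minus strand, Arrdc3 on chromosome 13 from 80883384 to 80896042 on the plus strand and Slc2a1 on chromosome 4 from 119108711 to 119137983 on the plus strand. None of the 9 shared an exon on its own strand with another annotated gene. The 250 bases before the RefSeq start (GRCm38.p6) are shown for Txnip and for Arrdc4, the alpha-arrestins for which glucose-responsive elements are best known. Capitals mark a pair of E-box-like motifs (each CACGNG) 5 bases apart, a forkhead motif (GTAAACA), an E-box (CACGTG) and CCAAT boxes (CCAAT, or ATTGG on the other strand).
Txnip promoter, chr3:96557707-96557956, plus strand: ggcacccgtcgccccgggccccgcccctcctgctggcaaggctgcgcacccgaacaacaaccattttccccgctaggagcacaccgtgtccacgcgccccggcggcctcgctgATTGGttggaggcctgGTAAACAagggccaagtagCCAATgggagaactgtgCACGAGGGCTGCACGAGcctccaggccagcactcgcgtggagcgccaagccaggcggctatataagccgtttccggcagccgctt
Arrdc4 promoter, chr7:68749239-68749488, minus strand: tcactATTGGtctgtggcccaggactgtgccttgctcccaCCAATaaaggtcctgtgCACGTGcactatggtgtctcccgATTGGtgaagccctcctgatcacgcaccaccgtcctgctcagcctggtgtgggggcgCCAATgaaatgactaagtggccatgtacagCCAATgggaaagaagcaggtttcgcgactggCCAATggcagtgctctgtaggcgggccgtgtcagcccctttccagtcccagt
The Txnip stretch held the paired element 85 bases before the start, read as CACGAGGGCTGCACGAG, and a forkhead motif 121 bases before it. The paired element was found on either strand in 16 of 32851 RefSeq promoter windows (0.0487%), the forkhead motif in 3.65% and CCAAT in 37.4%. The Arrdc4 stretch held an E-box 193 bases before the start, a motif present in 7.15% of windows, and 6 CCAAT boxes. An E-box was also found 98 bases before 1 of the Mlxipl starts. These matches are letters in a window; no binding was measured, and 8 of the 9 members had a RefSeq window.

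The gates selected cells whose independent markers followed the labels. Summed over 8 preadipocyte markers that the gates did not use (Pparg, Cd36, Lpl and others), the level was 8172 to 10583 CPM (UMIs scaled to a common total of 1e6 per sum) in the preadipocyte gate, 2852 to 3740 CPM in the regulatory gate and 741 to 1028 CPM in the progenitor gate. The 7 progenitor markers summed to 3152 to 4443 CPM in progenitors, 271 to 431 CPM in preadipocytes and 272 to 401 CPM in regulatory cells. The 7 regulatory markers summed to 2786 to 3307 CPM in regulatory cells, 655 to 1039 CPM in preadipocytes and 281 to 392 CPM in progenitors. The libraries held 6872 to 16220 barcodes and a median of 6667 to 12192.5 UMIs per kept cell, with mouse 2 the deepest, and they shared 37 to 59 barcodes in pairs. Regulatory cells were the shallowest class, with medians of 4945, 10104.5 and 4575 UMIs, and their 3 sums held 1424350 to 3697369 UMIs against at least 13571439 in either other class.

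Between preadipocytes and progenitors Txnip differed more widely than any other member. Per mouse, Txnip was at 167, 163 and 114 CPM in progenitors, 1111, 1070 and 1146 CPM in preadipocytes, and 236, 310 and 196 CPM in regulatory cells. The 3 ranges did not overlap, and within each mouse the order was progenitor, regulatory, preadipocyte. The preadipocyte level was 6.64, 6.54 and 10.1 times the progenitor level in the 3 mice, a log2 fold change of 2.88 with a standard error (SE) of 0.13. The regulatory level was 1.41, 1.90 and 1.72 times the progenitor level. Kept cells that passed no gate lay between, at 584, 456 and 441 CPM.

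The difference in sums was seen both in the share of cells with a Txnip UMI and in the number of Txnip UMIs per cell. Cells with at least 3000 UMIs were thinned to 3000, so that depth per cell was equal, and shallower cells were left out. In mouse 1 this kept 209 of 270 regulatory cells and 2219 of 2278 preadipocytes. The gates themselves used the counts before thinning. After thinning, 26.5%, 33.1% and 34.5% of preadipocytes had no Txnip UMI, against 73.2%, 73.8% and 80.8% of progenitors and 59.8%, 57.9% and 66.8% of regulatory cells. Cells with 3 or more Txnip UMIs made up 45.2%, 47.2% and 41.9% of preadipocytes, 5.40%, 5.41% and 3.13% of progenitors and 5.74%, 9.06% and 7.12% of regulatory cells. Preadipocytes were therefore spread widely, with 7.62%, 7.65% and 11.5% of them at 10 or more UMIs, a level reached by at most 0.130% of progenitors in any mouse. Progenitors averaged 0.495, 0.484 and 0.333 Txnip UMIs per thinned cell, a level at which many cells hold none by counting alone. A lower share of cells with Txnip and a lower amount per cell were therefore not told apart. No class here is known to lack Txnip, so the share that free RNA in the droplets would give was not measured.

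**Figure D1:**
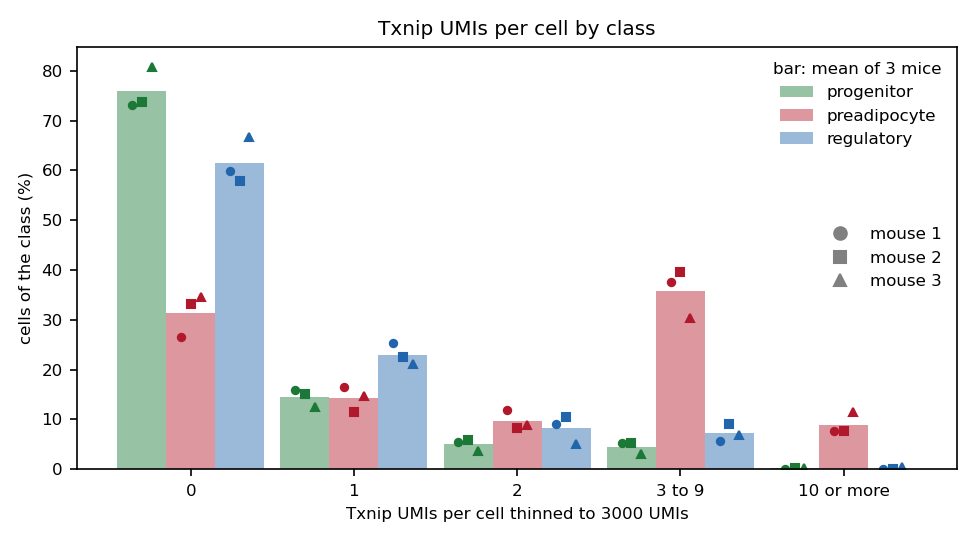
Percentage of cells in each class (vertical axis) by their number of Txnip UMIs after thinning to 3000 UMIs (horizontal axis); bars are means of 3 mice and symbols are the mice. Preadipocytes had 41.9% to 47.2% of cells at 3 or more UMIs and progenitors 3.13% to 5.41%.

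Arrdc3 and Arrdc1 did not share the class order of Txnip. Arrdc3, an adaptor in the ubiquitination of beta-adrenergic receptors, ran opposite to it at 78.3, 63.3 and 61.0 CPM in progenitors and 28.8, 27.9 and 28.8 CPM in preadipocytes, with 73.0, 53.3 and 54.2 CPM in regulatory cells. All preadipocyte sums were below all others, and the log2 fold change of preadipocytes over progenitors was -1.29 (SE 0.08, adjusted p = 3.84e-08, edgeR quasi-likelihood test with mouse as a block). Arrdc1, whose product drives budding of vesicles from the plasma membrane, was at 6.06, 6.88 and 5.64 CPM in progenitors and 3.69, 4.49 and 3.02 CPM in preadipocytes, a log2 fold change of -0.79 (SE 0.14, adjusted p = 0.000339). Its regulatory sums, at 6.32, 10.3 and 5.17 CPM, overlapped those of progenitors.

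Arrdc2 was the alpha-arrestin that rose with Txnip between these classes, from 1.23, 1.49 and 0.91 CPM in progenitors to 2.34, 2.95 and 2.95 CPM in preadipocytes (log2 fold change 1.14, SE 0.23, adjusted p = 0.00122). It was scarce, with 137 UMIs in all preadipocytes together, and its 11 regulatory UMIs could not place that class. Arrdc4, the closest relative of Txnip in its glucose response, was at 28.1, 19.4 and 21.6 CPM in progenitors and 23.3, 18.5 and 23.9 CPM in preadipocytes. The ranges overlapped, and the log2 fold change of -0.12 (SE 0.09, adjusted p = 0.28) did not pass the test while Txnip differed by over 6 times in the same sums.

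The glucose transporters split. Slc2a3, encoding GLUT3, was at 1.08, 0.99 and 0.76 CPM in progenitors, 2.83, 3.06 and 3.24 CPM in preadipocytes and 3.51, 5.68 and 3.62 CPM in regulatory cells, with no overlap between any pair of classes. Its log2 fold change over progenitors was 1.63 in preadipocytes (SE 0.22, adjusted p = 4.96e-05) and 2.25 in regulatory cells (SE 0.33, adjusted p = 0.000153). Regulatory cells held only 5, 21 and 7 Slc2a3 UMIs, and their log2 fold change over preadipocytes, 0.62 (SE 0.31), did not pass (adjusted p = 0.173, edgeR). Slc2a1, encoding GLUT1, was at 8.76, 11.7 and 9.65 CPM in progenitors, 8.64, 14.4 and 11.9 CPM in preadipocytes and 13.3, 10.0 and 18.1 CPM in regulatory cells. Without the cells that had a UMI of any of 6 mesothelial and epithelial markers, which took 8 of the 404 regulatory cells of mouse 3, the regulatory values were 13.3, 8.52 and 6.91 CPM. All 3 ranges overlapped, and the log2 fold change of preadipocytes over progenitors was 0.15 (SE 0.16, adjusted p = 0.442).

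Of the glucose-sensing factors, Mlxip (MondoA) differed little between progenitors, at 25.4, 20.6 and 25.9 CPM, and preadipocytes, at 23.4, 22.4 and 30.5 CPM (log2 fold change 0.02, SE 0.08, adjusted p = 0.833). It was at 14.0, 13.3 and 21.7 CPM in regulatory cells, a log2 fold change of -0.57 against progenitors (SE 0.14, adjusted p = 0.00593), a call lost without mouse 2 (adjusted p = 0.0883). Mlxipl (ChREBP) was scarce everywhere but higher in preadipocytes, at 3.31, 1.91 and 1.03 CPM against 0.67, 0.52 and 0.37 CPM in progenitors (log2 fold change 1.90, SE 0.36, adjusted p = 0.000628). Regulatory cells held 0, 0 and 2 Mlxipl UMIs, where a count of 0 still allows up to 2.11 CPM in mouse 1 and 0.811 CPM in mouse 2. In mouse 3, where regulatory cells held the 2 UMIs, their level of 1.03 CPM was no lower than the preadipocyte one.

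Between preadipocytes and progenitors, 5 of the 8 members other than Txnip passed the test, 3 higher and 2 lower. Over all 13258 genes tested 56.4% were called, 27.2% higher and 29.2% lower, so this share is near the background and says little about the set as such. Between regulatory cells and progenitors 3 of 8 were called (Slc2a3 higher, Arrdc4 and Mlxip lower), against 42.9% of all genes, 18.9% higher and 24% lower. Arrdc4, at 18.3, 11.1 and 20.1 CPM in regulatory cells, had a log2 fold change of -0.53 (SE 0.16, adjusted p = 0.0164) that did not hold without mouse 1 (adjusted p = 0.0573) or mouse 2 (adjusted p = 0.243). Between regulatory cells and preadipocytes 4 of 8 were called against 25.7% of all genes, 12.3% higher and 13.4% lower: Arrdc3 higher (log2 fold change 1.10, SE 0.11, adjusted p = 1.07e-05), Arrdc1 higher (1.07, SE 0.22, adjusted p = 0.00324), and Mlxip and Mlxipl lower. Without mouse 2, Arrdc1 (adjusted p = 0.138), Mlxip (adjusted p = 0.135) and Mlxipl (adjusted p = 0.339) were no longer called there; Mlxipl also fell away without mouse 1 (adjusted p = 0.207).

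**Figure D2:**
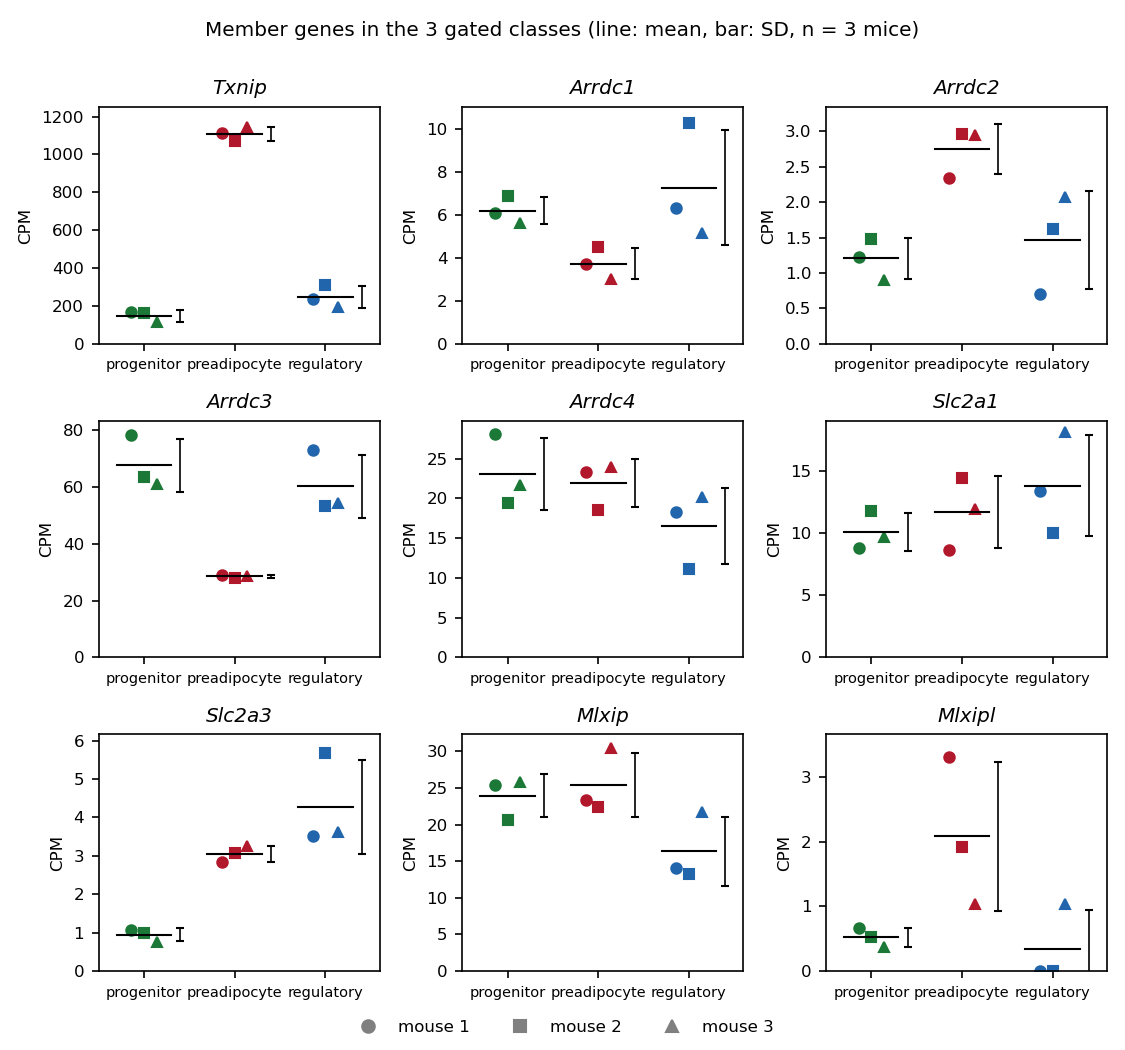
Level of each member in CPM (vertical axes, from 0) in the 3 gated classes; symbols are mice, lines are means and bars are SDs over 3 mice. Txnip was at 1070 to 1146 CPM in preadipocytes and at 114 to 310 CPM in the other classes, while Arrdc3 was lowest in preadipocytes.

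Other lists of the pathway held genes called in both directions between preadipocytes and progenitors, where 56.4% of all genes were called. Most lists were above that share, while glucose transporters, Mondo and Max-network genes and the thioredoxin system were near or below it. Of 7 NEDD4-family ubiquitin ligases, the partners of the alpha-arrestins, 4 were lower and 1 higher, led by Smurf2 (log2 fold change -2.02, SE 0.07, adjusted p = 3.7e-10), Smurf1 (-1.41) and Nedd4l (0.87), with a list median of -0.24 against 0.00 over all genes. Of 11 glucose transporters 7 were tested, and beside Slc2a3 the called genes were Slc2a13 (log2 fold change -1.72) and Slc2a12 (-1.25), both lower in preadipocytes. Of 10 Mondo and Max-network genes, 3 were higher and 2 lower, with Mnt, a repressor of Myc targets, at -1.26. Of 9 thioredoxin-system genes 3 were higher and 2 lower, the largest being Srxn1 (-1.32), which repairs overoxidised peroxiredoxins. Arrdc5, the remaining alpha-arrestin, had no UMI in any class.

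Markers of other cells also differed between these classes. Over all genes, 27.2% were called higher and 29.2% lower in preadipocytes than in progenitors. For regulatory cells these shares were 18.9% and 24% against progenitors, and 12.3% and 13.4% against preadipocytes. Endothelial markers (6 genes, Pecam1, Cdh5 and others) summed to 3.24 to 52.9 CPM in preadipocytes and 2.53 to 8.39 CPM in progenitors, and 4 of the 5 tested were higher in preadipocytes. Mural markers (6 genes, Rgs5, Acta2 and others) summed to 32.0 to 49.7 CPM in preadipocytes and 8.32 to 10.5 CPM in progenitors, and 5 of 6 were higher and 1 lower. Mature adipocyte markers (6 genes, Adipoq and others) reached at most 7.55 CPM in any preadipocyte sum, with at most 5 of the 6 detected, and none was detected in regulatory cells. The 1 that could be tested was higher in preadipocytes than in progenitors (log2 fold change 3.56). Leukocyte markers stayed within 3.74 to 20.4 CPM in every class. Mesothelial and epithelial markers (6 genes, Epcam, Krt8 and others) summed to 0, 1.89 and 141 CPM in the regulatory cells of the 3 mice, against 2.52 to 6.56 CPM in preadipocytes and 5.84 to 19.2 CPM in progenitors. Of the 5 tested 3 were higher in regulatory cells than in either other class, and 2 were lower in preadipocytes than in progenitors. Proliferation markers (5 genes, Mki67 and others) summed to 0.702 to 2.07 CPM in regulatory cells, 4.51 to 25.9 CPM in preadipocytes and 4.73 to 17.2 CPM in progenitors, and 4 of 5 were lower in regulatory cells than in either other class. Leaving out every cell with a mesothelial or epithelial marker UMI, an alternative chosen after the data were seen, left the number of members called in each of the 3 class comparisons as it was; the part of the other cells in the members' differences was not tested.

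The next question was whether the other members follow Txnip among cells of the same class. In each class, cells thinned to 3000 UMIs were split into those with 0 Txnip UMIs and those with 3 or more, and the thinned counts were summed per mouse and side. Progenitors gave 4997, 2291 and 6841 cells on the low side and 369, 168 and 265 on the high side, and preadipocytes 587, 450 and 629 low and 1002, 641 and 764 high. In progenitors and preadipocytes median depth before thinning differed little between sides. In mouse 1 it was 7539 and 7386 UMIs for low and high progenitors and 8244 and 8077 UMIs for preadipocytes. Low and high regulatory cells were at 10197 and 12435 UMIs in mouse 2 and at 5508 and 5196 in mouse 3. The high sides held 1393, 1339 and 1434 CPM of Txnip in progenitors and 2192, 2165 and 2513 CPM in preadipocytes, values fixed by the split.

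In progenitors, Arrdc3 and Arrdc4 were higher in Txnip-high cells and Slc2a1 was lower. Arrdc3 rose from 74.5, 60.8 and 56.6 CPM to 102, 117 and 113 CPM, with no overlap (log2 fold change 0.67, SE 0.12, adjusted p = 0.000595). Arrdc4 rose from 25.0, 18.3 and 20.3 CPM to 37.9, 23.8 and 42.8 CPM, higher in 3 of 3 mice although the ranges overlapped (log2 fold change 0.66, SE 0.18, adjusted p = 0.0259). Slc2a1 fell from 9.34, 13.2 and 10.8 CPM to 5.42, 5.95 and 3.77 CPM, with no overlap but only 12 UMIs on the high side (log2 fold change -1.18, SE 0.36, adjusted p = 0.0419). Mlxip was at 19.1 to 27.5 CPM low and 32.7 to 35.2 CPM high, a log2 fold change of 0.38 (SE 0.18) that did not pass (adjusted p = 0.2). Arrdc1 had a log2 fold change of -0.09 (SE 0.39, adjusted p = 0.927).

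These were 3 of the 5 members that could be tested, against 10.7% of the 10565 genes tested in progenitors, 4.16% higher and 6.51% lower; Arrdc2, Slc2a3 and Mlxipl had 5, 3 and 2 UMIs on the high side and were left out by the filter. With all counts of the same cells summed Arrdc2 was tested and was higher in Txnip-high progenitors, at 1.40 (adjusted p = 0.0356). Without mouse 3, which supplied the largest number of low-side cells, none of the 3 passed, with adjusted p = 0.0867 for Arrdc3, 0.327 for Arrdc4 and 0.222 for Slc2a1 at the same signs. Without mouse 1 the adjusted p was 0.0513 for Arrdc4 and 0.063 for Slc2a1, and without mouse 2 it was 0.087 for Slc2a1. With no block for mouse none of the 3 passed. Without cells that had a mesothelial or epithelial marker UMI, Slc2a1 did not pass (-1.11, adjusted p = 0.0515).

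Markers of the other classes moved with the split in progenitors. Of 8 preadipocyte markers 7 were higher on the Txnip-high side (median log2 fold change 1.37, against 0.01 over all genes), and of 7 progenitor markers 6 were lower (median -0.46). In progenitors with no UMI of Icam1, Fabp4, Sparcl1 or Col15a1, a set chosen after the data were seen, Arrdc3 was again higher with a log2 fold change of 0.82 (adjusted p = 0.000133). There Arrdc4 was at 0.58 (adjusted p = 0.199) and Slc2a1 at -1.31 (adjusted p = 0.186). Between the classes Arrdc3 had the opposite direction, lower in preadipocytes than in progenitors. The part of the class markers in the differences within progenitors was not tested.

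In preadipocytes Slc2a1 was the member that passed the test, lower in Txnip-high cells. Slc2a1 fell from 16.5, 22.2 and 22.8 CPM in Txnip-low cells to 5.32, 8.84 and 6.54 CPM in Txnip-high cells, from 102 UMIs to 48 over the 3 mice although the high side held more cells. The ranges did not overlap, and the log2 fold change was -1.71 (SE 0.24, adjusted p = 7.16e-05); leaving out 1 mouse at a time gave -1.80 to -1.60, each past the test. Arrdc3 was at 25.6, 19.3 and 22.8 CPM low and 35.3, 27.0 and 27.1 CPM high, higher in 3 of 3 mice (log2 fold change 0.27, SE 0.17, adjusted p = 0.286). Its result depended on the depth kept: with all counts of the same cells summed it was 0.42 (adjusted p = 0.0127), and with cells thinned to 5000 UMIs 0.58 (adjusted p = 0.0134).

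Arrdc4 was at 17.0, 16.3 and 20.1 CPM in Txnip-low and 28.3, 16.6 and 28.8 CPM in Txnip-high preadipocytes (log2 fold change 0.36, SE 0.19, adjusted p = 0.219). Mlxip was at 19.9, 24.4 and 32.3 CPM low and 25.0, 21.3 and 31.8 CPM high (log2 fold change -0.08, SE 0.17, adjusted p = 0.796). Slc2a1 was thus the 1 member called of 4 tested, in a comparison that called 20.3% of 9240 genes, 6.97% higher and 13.4% lower; Arrdc1, Arrdc2, Slc2a3 and Mlxipl had 19 to 27 UMIs on the high side and were not tested. Class markers moved with this split too: 4 of 8 preadipocyte markers were higher on the Txnip-high side and 1 lower (median log2 fold change 0.22, against -0.01 over all genes), 4 of the 5 progenitor markers tested were lower (median -0.97), and of 7 regulatory markers 4 were lower and 1 higher (median -0.66). Their part in the Slc2a1 difference was not tested.

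**Figure D3:**
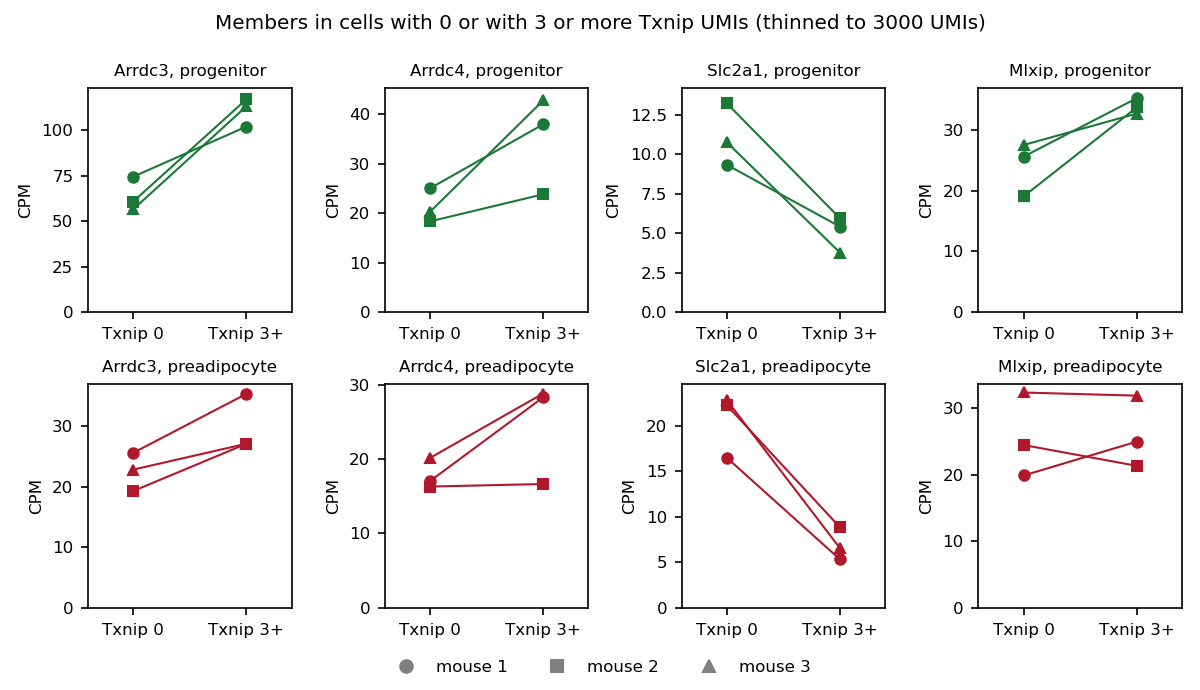
Level in CPM (vertical axes, from 0) of Arrdc3, Arrdc4, Slc2a1 and Mlxip in cells with 0 or with 3 or more Txnip UMIs, for progenitors above and preadipocytes below; each line is 1 mouse. Slc2a1 fell and Arrdc3 was higher on the Txnip-high side in all 3 mice of both classes.

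In regulatory cells the split left 31 and 21 Txnip-high cells in mice 2 and 3, and mouse 1, with 12, was left out. Slc2a1 had 32 UMIs among the Txnip-low cells of the 3 mice and none among the Txnip-high ones. With all counts of the same cells summed it had 14, 28 and 32 UMIs low and 0 high, where the high sums held 83259, 368448 and 123054 UMIs. The call it then received (adjusted p = 0.0027) was made against a count of 0 in few cells, and no fold is given. In all regulatory cells of mouse 3 Slc2a1 had 35 UMIs, and 13 without cells that had a mesothelial or epithelial marker UMI. Most of the 32 low-side UMIs of that mouse therefore came from such cells, whose removal took the low side from 197 to 194 cells. The call with all counts summed was not repeated without them. Mesothelial and epithelial markers summed to 762 CPM on the Txnip-high side of mouse 3 and to 0 CPM on that of mouse 2, against 8.46 and 0 CPM on the low sides. Arrdc3 alone could be tested, at 42.1 and 45.7 CPM low and 32.3 and 47.6 CPM high (log2 fold change -0.31, SE 0.65, adjusted p = 0.932), on 6 UMIs. A change of the size seen in progenitors was not detectable at this depth, and 3.46% of 4572 genes were called, 0.962% higher and 2.49% lower. Without cells that had a mesothelial or epithelial marker UMI, which left 30 and 20 Txnip-high cells, 91 genes were called in place of 158.

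The split was then compared between classes in 1 model. No member tested other than Txnip, 7 in all, differed by class after adjustment (edgeR quasi-likelihood test). Among these, Arrdc2 and Slc2a3 had been too scarce for a test within any class at this depth. Regulatory cells entered with 31 and 21 Txnip-high cells. For those genes and that class the lack of a call says little. At an unadjusted p under 0.05 there was 1 member, Arrdc3 (adjusted p = 0.324 for both differences together). Its log2 difference from progenitors was -0.39 in preadipocytes and -1.22 in regulatory cells. For Slc2a1 (adjusted p = 0.631 for both together) the log2 difference between preadipocytes and progenitors was -0.53. No fold is given for regulatory cells, whose Txnip-high side held no Slc2a1 UMI, and preadipocytes and progenitors were not tested alone. Over all genes 2.28% of 10375 were called, so a call in one class and not the other is not evidence that a member follows Txnip differently there.

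The CD44 axis of the study was read next, in preadipocytes alone. Cells with 2 or more UMIs of Cd44 and Noct together (296, 169 and 328 cells) were set against those with 0 (1452, 915 and 1029 cells). Cd44 encodes a hyaluronan receptor and Noct the rhythmically expressed Nocturnin. Txnip was at 521, 231 and 383 CPM on the high side and 1341, 1408 and 1530 CPM on the low side, which restates the pattern it was picked for (log2 fold change -1.85, SE 0.12). Slc2a1 ran the other way, at 19.1, 17.8 and 20.3 CPM on the Cd44/Noct-high side and 6.43, 10.6 and 9.07 CPM on the low side, with no overlap (log2 fold change 1.27, SE 0.29, adjusted p = 0.00489).

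That call on Slc2a1 was the only one among 4 members tested, where 8.85% of 9245 genes were called, 6.53% higher and 2.31% lower, and it was lost without mouse 1 (adjusted p = 0.0641) or mouse 3 (adjusted p = 0.0614). Arrdc3 was at 29.3, 13.8 and 16.3 CPM high and 32.4, 29.5 and 30.5 CPM low (log2 fold change -0.52, SE 0.22, adjusted p = 0.164), and Arrdc4 at 14.6, 17.8 and 16.3 CPM high and 25.3, 16.8 and 27.5 CPM low (log2 fold change -0.53, SE 0.25, adjusted p = 0.217). With all counts of the same cells summed Arrdc3 passed, at -0.999 (adjusted p = 0.00194). Mlxip was at 24.8, 21.7 and 35.6 CPM high and 24.1, 18.2 and 30.1 CPM low (log2 fold change 0.24, SE 0.20, adjusted p = 0.546). Mural markers summed to 19.3 to 36.0 CPM on the Cd44/Noct-high side and 33.5 to 67.1 CPM on the low side, 2 of the 4 tested were lower on the high side (median log2 fold change -0.92), and their part in these values was not tested. These are the same cells as in the preadipocyte Txnip split and the comparisons are not independent.

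**Figure D4:**
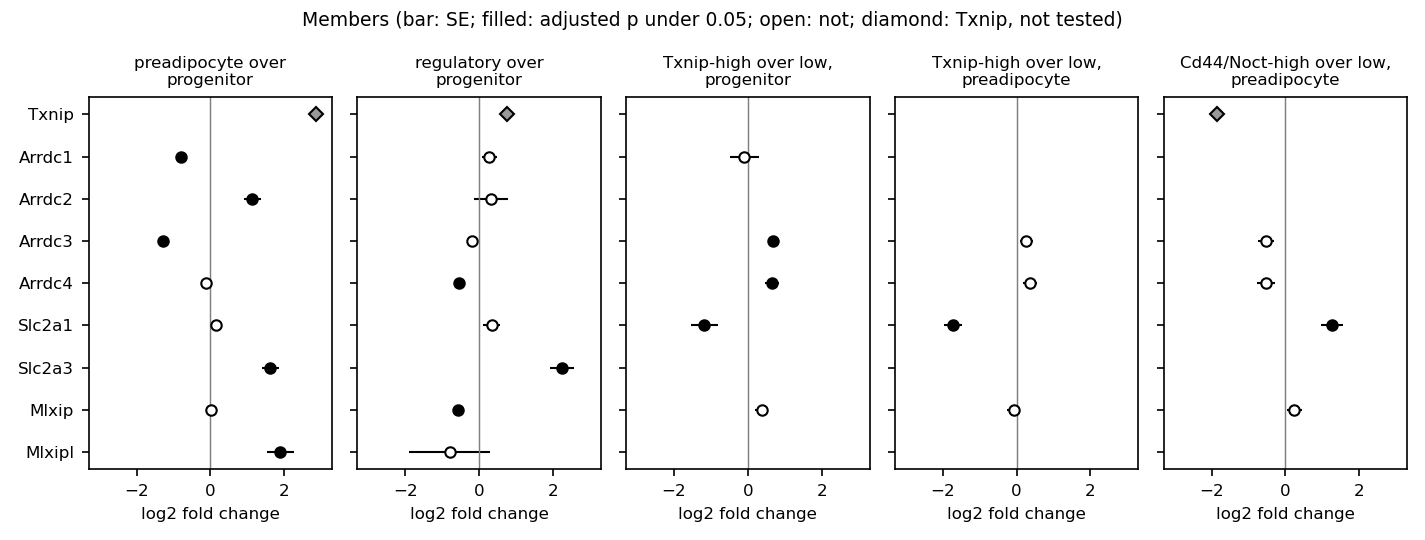
Log2 fold change of each member (horizontal axes) in 5 comparisons; bars are SEs, filled circles passed an adjusted p of 0.05, open circles did not, and diamonds give Txnip without a test. Slc2a1 was at -1.18 and -1.71 in the Txnip splits and at 1.27 in the Cd44/Noct split, while its class difference was 0.15.

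The pathway lists were read in the Txnip splits against the 10.7% of all genes called in progenitors and the 20.3% in preadipocytes. Of 19 glycolysis and lactate-export genes, 16 were tested in progenitors (2 lower, 1 higher) and 15 in preadipocytes (4 lower, 1 higher). Hk2, the inducible hexokinase that makes glucose-6-phosphate, led both: it fell from 451 ± 70.2 CPM (SD, n = 3) to 183 ± 6.88 CPM in progenitors (log2 fold change -1.36, SE 0.09) and from 457 ± 125 CPM to 83.5 ± 15.8 CPM in preadipocytes (-2.54, SE 0.13). Slc16a1, the lactate and pyruvate transporter MCT1, fell by 1.26 and 1.22 on the log2 scale. Ldhb, the lactate dehydrogenase subunit of oxidative tissues, rose in preadipocytes (0.69), as did the isomerase Tpi1 in progenitors (0.58). Most other glycolytic enzymes did not pass the test in either class, and the list medians, -0.15 and -0.12, were close to those over all genes, 0.01 and -0.01.

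Of the thioredoxin system, whose reduced form Txnip binds, 3 of 9 genes were lower where Txnip was high in each class and none was higher. Srxn1 fell from 233 ± 69.4 to 51.8 ± 11.5 CPM in progenitors (log2 fold change -2.24, SE 0.11) and from 158 ± 30.8 to 33.9 ± 3.27 CPM in preadipocytes (-2.31, SE 0.13). Txnrd1, thioredoxin reductase, fell by 1.57 and 1.68 on the log2 scale. The third gene was the peroxiredoxin Prdx1 in progenitors (-0.26) and thioredoxin itself, Txn1, in preadipocytes (-0.73).

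Among Mondo and Max-network genes Myc fell (log2 fold change -0.78 in progenitors and -1.43 in preadipocytes) and its antagonist Mxd1 (0.90 and 0.82) rose, with Mxd4 rising in progenitors (0.30) and Max in preadipocytes (0.49). In all, 2 of 9 tested rose and 1 fell in progenitors, and 3 of 9 rose and 1 fell in preadipocytes. None of the 10 ChREBP lipogenic targets tested rose in either class; 1 fell in progenitors (Scd1, -0.50) and 4 in preadipocytes (Me1 -0.73, Fasn -0.58 and Scd1 -0.51 the largest). Of 7 NEDD4-family ligases 2 fell in each class, Smurf1 (-0.63 and -0.65) in both.

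FoxO factors and targets, a list that holds genes induced when insulin signalling is low, moved in both directions. Of 14 tested in progenitors 4 rose and 2 fell, and of 12 in preadipocytes 5 rose and 2 fell. Pdk4, which restrains pyruvate entry into the mitochondria, rose from 7.32 ± 1.21 to 18.8 ± 4.33 CPM in progenitors (log2 fold change 1.23) and from 5.54 ± 1.21 to 21.0 ± 6.13 CPM in preadipocytes (1.78). Bcl6 rose by 0.94 in progenitors, and the insulin receptor substrate Irs2 fell there by 1.09 on the log2 scale. In preadipocytes Trib1 fell (-2.22) and Pik3ip1 rose (1.29).

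Glucocorticoid-response genes also divided: 3 of 10 rose and 3 fell in progenitors, and 3 rose and 4 fell in preadipocytes. Ddit4, an inhibitor of mTORC1, rose (log2 fold change 1.96 and 2.02), as did Tsc22d3, which encodes GILZ (1.14 and 1.35), and Errfi1 fell (-1.02 and -1.14). Of 9 hypoxia-response genes 6 were tested in each class, and Ndrg1 fell in both (-0.69 and -1.64). In progenitors Vegfa also fell (-0.66) and Adm rose (0.60).

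Among genes that respond to the enzymatic dissociation of tissue, more rose than fell with Txnip in both classes. Of 18, 10 rose and 3 fell in progenitors (median log2 fold change 0.53) and 9 rose and 4 fell in preadipocytes (median 0.23), led by Hspa1a (1.39 and 1.55) and Hspa1b (1.31 and 1.30). The tissue was digested with warm collagenase before sorting, and the part of that step in the Txnip difference was not tested. The median mitochondrial share was higher on the Txnip-high side in 3 of 3 mice of both classes: 1.24%, 1.90% and 1.44% low and 1.38%, 2.15% and 1.70% high in progenitors, and 1.60%, 2.55% and 1.96% low and 1.72%, 2.80% and 2.07% high in preadipocytes. Its part in the differences was not tested. Mural markers summed to 14.8 to 64.7 CPM on the low and 21.8 to 85.8 CPM on the high side of preadipocytes, and none of the 3 tested was called.

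A list of 6 genes of the CD44 axis moved in both classes. The study set Cd44, Noct, Ptx3, Mt2 and G0s2 along that axis on these same samples and Cxcl9 was added here with earlier results known, so their direction is no independent evidence. In preadipocytes 5 fell with high Txnip, led by Ptx3 (log2 fold change -3.18), Noct (-2.23) and Mt2 (-2.17), and 1 rose. In progenitors 3 fell and 2 rose, with Ptx3 at -1.42, Cxcl9 at 2.02 and G0s2, an inhibitor of adipose triglyceride lipase, at 1.99.

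The pathway lists were also read along Cd44 and Noct in preadipocytes, where 6.53% of all genes were higher and 2.31% lower. Of 12 FoxO factors and targets tested 2 were higher and 4 lower, and of 10 glucocorticoid-response genes 2 were higher and 3 lower. Of 9 Mondo and Max-network genes 1 was higher and 1 lower, and of 6 hypoxia-response genes 1 was higher. None of 10 ChREBP lipogenic targets or 7 NEDD4-family ligases was called. Of 16 glycolysis and lactate-export genes tested 4 were higher on the Cd44/Noct-high side and none lower, with Hk2 (log2 fold change 1.55, SE 0.10), Slc16a1 (0.91) and Ldha (0.38) the largest, and of 9 thioredoxin-system genes 3 were higher, Srxn1 (1.67), Txnrd1 (1.29) and Txn1 (0.47). Of the 18 dissociation-response genes 11 were lower and 1 higher, led by Hspa1a (-1.43), Hspa1b (-1.06) and Ier2 (-1.001).

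Cell by cell, the genes most like Txnip among the abundant genes came from that same list. Pearson's r with Txnip was taken over thinned cells, as log2(UMIs + 1), in each of the 9 class and mouse combinations (209 to 8470 cells) and averaged, for 1664 genes with at least 0.2 UMIs per cell in every class. None of the other 8 members reached that minimum in every class, so none could be ranked. The median over the genes ranked was 0.002. The highest mean r belonged to Jun (0.354) and Fos (0.331), subunits of AP-1, the heat-shock genes Hspa1a (0.283) and Hspa1b (0.253), the immediate early gene Ier2 (0.222) and the chaperone Hsp90aa1 (0.220). The lowest belonged to Tnfaip6 (-0.352), whose product crosslinks hyaluronan, the metallothioneins Mt2 (-0.339) and Mt1 (-0.331), Ugdh (-0.329), which makes UDP-glucuronate, the hyaluronan synthase Has1 (-0.271) and Gfpt2 (-0.254), which draws fructose-6-phosphate into hexosamine synthesis. All but Ier2, at -0.016 in 1 combination, kept their sign in all 9.

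The members themselves were near 0 on this measure. The mean r with Txnip was 0.041 for Arrdc3 and for Arrdc2, 0.025 for Arrdc4, 0.022 for Mlxip and -0.067 for Slc2a1, which ran from -0.108 to -0.016 and was negative in all 9 combinations. At these counts per cell such values are too weak to carry a finding, and the cells of a combination share 1 library.

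**Figure D5:**
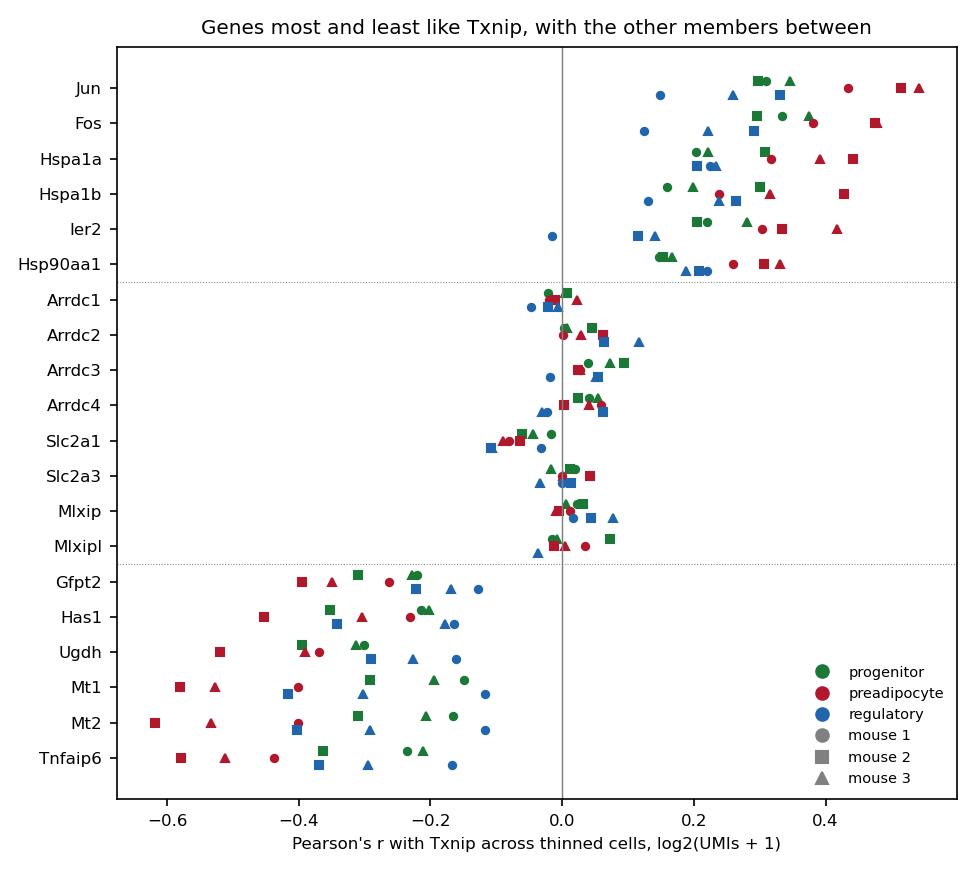
Pearson's r with Txnip over thinned cells (horizontal axis) in the 9 class and mouse combinations, coloured by class and marked by mouse, for the 6 most alike genes, the 8 other members and the 6 least alike genes. Jun reached 0.542 and Mt2 -0.619, while Slc2a1 stayed between -0.108 and -0.016.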

How the data were processed

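Inguinal fat SVF cells of 3 wild-type mice were profiled with the 10x 3' v2 chemistry, 1 library per mouse. The authors deposited raw UMI counts per gene and cell barcode; the file headers name Cell Ranger 4.0.0, whereas the submitters' notes name Cell Ranger 2.1.1 and mm10. No normalized value or column of comparisons was used.

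Cells with over 500 genes and under 5% mitochondrial UMIs were gated on raw counts as given above. Counts were summed per mouse and class (CPM: UMIs scaled to a total of 1e6), or per side of a split after each cell had been thinned without replacement to 3000 UMIs, leaving out shallower cells and any mouse with under 20 cells on a side. No doublet caller was run, and doublets were not removed. Sums were tested with edgeR 4.0.16 in R 4.3.3 (filterByExpr, TMM, quasi-likelihood F-test, mouse as a block) with Benjamini-Hochberg adjustment over all genes tested and a threshold of 0.05. The 6 gate genes, and the genes that made a split, were left out of counts of called genes. CPM levels carry no length correction and serve to compare classes for 1 gene. DESeq2 1.42.0, other normalizations, filters, depths and gates, and leaving out each mouse were tried as alternatives. The fit was also run on simulated sums, with an outcome that is not given here. Sums as small as those of the regulatory split were not simulated.

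Sums of a mouse came from the same animal, and the deviations of same-numbered sums from their class means correlated at 0.53 to 0.915 over 5358 genes, so mouse was kept as a block. No 2 libraries agreed within counting error. The 3 samples are 3 animals. Intervals and limits for a count of 0 cover counting error only.

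All 9 members are named; of each other list, only genes that passed, at most the 3 with the largest change per comparison; and the 6 genes most and 6 least like Txnip. The members and lists were chosen with earlier results of these data known. Gene positions come from GENCODE, where 32235 of 32285 gene IDs matched, and promoters from RefSeq. Protein sequences were not used here.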

Additional observations from a re-analysis of the deposited data

Results flagged for a closer look

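Among genes picked from the Txnip splits, 10 changed with Txnip differently between classes (edgeR test, adjusted over all genes tested). Those picked were the members, the genes most and least like Txnip, and at most the 3 largest calls per pathway list and class. The 10 are therefore not a count over whole lists. Over all 10375 genes tested, 2.28% were called. The test took the class-by-side terms of preadipocytes and of regulatory cells together, so its p-value does not belong to either class alone. All log2 fold changes here are Txnip-high over Txnip-low cells, and the regulatory values rest on 31 and 21 Txnip-high cells of 2 mice. The same UMI cut gave unlike contrasts. The high side held 3.13% to 5.41% of progenitors, at 1339 to 1434 CPM of Txnip, and 41.9% to 47.2% of preadipocytes, at 2165 to 2513 CPM. The part of that in the differences between classes was not tested. None of the 10 is a member of the set. Without cells that had a mesothelial or epithelial marker UMI all 10 differences still passed, the highest adjusted p being 0.0378 (Ier2). With no block for mouse, however, the test called fewer than 10 genes in all, so most of these differences lost their call. Which of the 10 passed without the block, or on leaving out a mouse, is not given here.

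Among the genes that fell more steeply outside progenitors, Hk2, the inducible hexokinase, was at -1.36 (SE 0.09) in progenitors, -2.54 (SE 0.13) in preadipocytes and -2.23 (SE 0.37) in regulatory cells (adjusted p = 0.00105 for the difference). Trib1, a pseudokinase, was at -0.59, -2.22 and -1.90 in the same order (adjusted p = 0.000194). Cd44 was at -0.28 in progenitors, which did not pass (adjusted p = 0.287), -1.96 in preadipocytes and -1.68 in regulatory cells (adjusted p = 0.000718 for the difference); the regulatory value did not pass without the cells with those markers (-1.63, adjusted p = 0.089). Ptx3, a secreted pattern-recognition protein, was at -1.42, -3.18 and -2.98 (adjusted p = 0.00152). Thioredoxin, Txn1, was at -0.07 in progenitors, -0.73 in preadipocytes and -0.48 in regulatory cells, of which only the preadipocyte value passed in its own class (adjusted p = 0.0121 for the difference).

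The chemokine gene Cxcl9 had opposite signs, 2.02 (SE 0.41) in progenitors and -1.11 (SE 0.15) in preadipocytes, and was too scarce to test in regulatory cells (adjusted p = 0.0019 for the difference). In Txnip-high progenitors 7 of 8 preadipocyte markers were also higher and none lower, and their part in the Cxcl9 rise was not tested. Zfp36, which encodes an mRNA-destabilising protein, was at 0.16 in progenitors (adjusted p = 0.43), -0.27 in preadipocytes and -0.97 in regulatory cells (adjusted p = 0.00156 for the difference).

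The immediate early genes most like Txnip differed mainly through regulatory cells. Fos was at 1.31, 1.07 and 0.46 in progenitors, preadipocytes and regulatory cells (adjusted p = 0.0071 for the difference), Jun at 1.30, 1.15 and 0.71 (adjusted p = 0.0164) and Ier2 at 1.22, 1.12 and 0.40 (adjusted p = 0.0273). The regulatory value of Ier2 did not pass in its own class (adjusted p = 0.327, edgeR test). The differences of preadipocytes from progenitors were -0.19, -0.11 and -0.06 for Fos, Jun and Ier2, and those of regulatory cells from progenitors -1.04, -0.79 and -1.04.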

How the results depend on the processing

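Of 787 values recomputed under the alternatives, 683 kept their direction and their side of the threshold or stayed within 1.5 times the main count. Counts of genes called follow, with the main count in parentheses. Counts of members between classes include Txnip, whose own call is a description. Without Txnip the main counts were 3 between regulatory cells and progenitors and 4 between regulatory cells and preadipocytes.

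With no replicate block for mouse, fewer genes were called: 3996 (7471) between preadipocytes and progenitors, 3130 (5694) between regulatory cells and progenitors with 2 (4) members, and 1531 (3405) between regulatory cells and preadipocytes with 3 (5) members. The Txnip splits without the block called 179 (1128) genes and 0 (3) members in progenitors, 405 (1880) genes in preadipocytes and 9 (158) in regulatory cells, the Cd44/Noct split 98 (818) genes and 0 (1) members, and the difference between classes 4 (237) genes. DESeq2 called 492 genes and 1 member in progenitors, 660 genes in preadipocytes and 21 in regulatory cells for the Txnip splits, and 321 genes and 0 members for Cd44/Noct; it was not run for the difference between classes. Gates and sums on thinned counts gave 3377 genes for regulatory cells against progenitors and 1866 genes with 3 members against preadipocytes.

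More genes were called with all counts of the same cells summed: 2355 in progenitors, 3542 with 2 members in preadipocytes, 334 with 1 member, Slc2a1 against a count of 0, in regulatory cells, and 1585 with 2 members for Cd44/Noct. Thinning to 5000 UMIs called 2286 genes in progenitors and 2 members in preadipocytes. The regulatory split called 57 genes without the 5% of cells with the most UMIs. The difference between classes called 358 genes with no filter on low counts. Alternatives chosen after seeing the data gave 92 genes in the regulatory split with the mouse under 20 cells kept and 91 without cells that had a mesothelial or epithelial marker UMI, 366 for the difference between classes with mouse within class as the block, and 618 genes with 1 member in progenitors with no Icam1, Fabp4, Sparcl1 or Col15a1 UMI.

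Leaving out 1 mouse at a time called 2053 to 2800 genes and 2 to 5 members between regulatory cells and preadipocytes, lowest without mouse 2. It called 430 to 1184 genes and 0 to 2 members in the progenitor split, 450 to 677 genes and 0 to 1 members in the Cd44/Noct split, and 54 to 217 genes for the difference between classes, all lowest without mouse 3. Leaving out mouse 2 or 3 in the regulatory split left no residual degrees of freedom and gave no value. Apart from the fewer samples or the more counts that some alternatives hold by construction, the cause of these shifts was not tested.

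Of the log2 fold changes of single members, 34 lost and 7 gained their call under an alternative, with the sign kept, and Txnip in the Cd44/Noct split was at -1.10 with the high side from 1 UMI. Changes of sign affected 16 values of single members, none of them past the threshold before or after. On leaving out 1 mouse the log2 fold change ran from -0.22 to 0.013 for Arrdc4 and -0.053 to 0.16 for Mlxip between preadipocytes and progenitors. Between regulatory cells and progenitors it ran from -0.021 to 0.41 for Arrdc1, -0.092 to 0.58 for Arrdc2 and -6.65 to 0.28 for Mlxipl, where the lower end is a fit to libraries at 0. It ran from -0.078 to 0.69 for Slc2a1 between regulatory cells and preadipocytes, -0.46 to 0.40 for Arrdc1 in the progenitor split and -0.23 to 0.037 for Mlxip in the preadipocyte split. Other alternatives gave Mlxipl 0.37 against progenitors with cells of several gates kept as regulatory, Slc2a1 -0.32 against preadipocytes on thinned gates and, without cells with a mesothelial or epithelial marker UMI, -0.34 in regulatory cells against preadipocytes and -0.20 against progenitors, Arrdc1 0.15 in the stricter progenitors, Mlxip 0.051 in the preadipocyte split with library size only, and Arrdc3 0.46 in the regulatory split with all counts summed. Depth limits the scarce members most. With the filter on low counts, Arrdc2, Slc2a3 and Mlxipl could not be tested within any class in the thinned splits.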

Other observations

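Regulatory cells were read in the wider pathway against the 42.9% of all genes called between them and progenitors and the 25.7% called between them and preadipocytes. Against progenitors, 5 of 7 NEDD4-family ubiquitin ligases were lower and none higher, led by Smurf2 (log2 fold change -2.27, SE 0.10, adjusted p = 7.25e-09, edgeR), Smurf1 (-1.77) and Wwp1 (-0.34), with a list median of -0.34 against -0.05 over all genes. Of 10 ChREBP lipogenic targets tested 6 were lower and 1 higher; Mid1ip1, an activator of acetyl-CoA carboxylase, was the higher one (1.86, SE 0.15), and the desaturase Scd1 (-1.20) and ATP citrate lyase, Acly (-0.87), were among the lower. Of 17 glycolysis and lactate-export genes 6 were lower and 2 higher, with the monocarboxylate transporters Slc16a1 (-1.68) and Slc16a3 (-1.53) the largest. Of 9 thioredoxin-system genes 3 were higher and 2 lower, Srxn1 (-1.33) and Prdx4 (1.25) leading.

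Against preadipocytes, 4 of 8 hypoxia-response genes were higher in regulatory cells and none lower, led by Ndrg1 (log2 fold change 1.83, SE 0.13) and the mitophagy receptor Bnip3 (1.60, SE 0.14), with a list median of 0.58 against -0.04 over all genes. Of 17 glycolysis and lactate-export genes 7 were lower and 1 higher, Ldhb (-1.23) leading. FoxO factors and targets divided, 6 of 14 higher and 3 lower, with Klf15 at 1.52 and Pdk4 at -1.58. Of 18 dissociation-response genes 11 were higher and 1 lower in regulatory cells than in progenitors, with Jun at 1.06 and Hspa1b at 1.06, and 4 were higher and 5 lower than in preadipocytes.

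Within regulatory cells the Txnip split called 3.46% of genes. It rested on 4 sums of 2 mice, so its p-values lean on the spread shared over genes and say little about the spread between mice. Hk2 fell with high Txnip (log2 fold change -2.23, SE 0.37, adjusted p = 3.29e-07, edgeR), as did Txnrd1 (-2.38) and Trib1 (-1.90). Without cells that had a mesothelial or epithelial marker UMI these 3 were still called (adjusted p = 0.00188, 0.00306 and 0.00547), while Myc (adjusted p = 0.0716) and Ddit4 (adjusted p = 0.112) were not.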
